A study of Homo sapiens with 18 samples.

Results

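A673 is an established Ewing sarcoma cell line, and its response to loss of the EWSR1::FLI1 fusion was measured here in 6 RNA-seq libraries out of 18 in the series. The libraries were chosen by line and siRNA alone: 3 from A673 cells given siFLI1, an siRNA to FLI1 that also targets the fusion transcript, and 3 from A673 cells given siNeg, a negative control siRNA. Of 58381 rows in the gene table, 18444 genes passed the filter on low counts, and all of them are the members described. Both groups came from the same line, grown in DMEM with 10% FBS, and both were reverse transfected at 20 nM with Lipofectamine RNAi-Max, so the controls carried the transfection and the reagent too. The labels gave no time after transfection for this line. The other 12 libraries came from the Ewing lines TC-32 and TC-71, grown in an RPMI medium and treated with the same siRNAs, and served only to ask where A673 differed. All values describe 1 line and 1 siRNA to FLI1, and nothing in the labels said that the 3 libraries of a group came from separate cultures, so p-values measure the spread between these libraries.

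Ewing sarcoma is a tumour of bone and soft tissue in young people. Its fusion joins the activation domain of EWSR1 to the DNA-binding domain of FLI1, an ETS factor. The fusion is known to open GGAA microsatellites as enhancers of one set of genes and to keep down another set, rich in genes of mesenchymal cells. A673 is also known to carry an activating BRAF mutation and to lack functional p53 and CDKN2A. CDKN2A and CDKN2B had 0 counts in each of the 6 libraries, and FLI1, which the siRNA targets and whose 3′ part the fusion carries, was at 76.5, 76.8 and 75.4 CPM (counts scaled to library size) with siNeg and 18.3, 17.9 and 17.6 CPM with siFLI1, with no overlap.

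The libraries held 114564479 to 120993595 estimated counts each, and the first principal component, which held 90.8% of the variance, parted the siRNA groups. Called means an edgeR quasi-likelihood test with Benjamini-Hochberg adjusted p under 0.05 over all 18444 genes. Fold changes are given on the log2 scale ± SE, with n = 3 libraries a group. By that rule 13096 genes (71%) were called, 6565 higher with siFLI1 (35.6%) and 6531 lower (35.4%), and 73.6% of genes had groups that did not overlap. With so high a background, a call alone says little, so each list below is read against these shares and by the size of its changes. The lists were chosen with earlier results of these data known, so their counts describe the lists and carry no test. A change of at least 2-fold as well was found for 2449 genes that were higher (13.3%) and 1820 that were lower (9.87%). The larger changes were more often rises: 381 genes rose at least 16-fold and 163 fell as far. Over all tested genes the median log2 fold change was -0.01. Markers chosen for Ewing identity, CD99, NKX2-2, NR0B1, STEAP1, BCL11B and PRKCB, were present in every siNeg library, and 6 of 6 fell. Of 17 markers of blood, endothelial, epithelial, muscle and pigment cells, 9 passed the filter, and their summed level was 1.55 to 2.03 CPM with siNeg and 3.55 to 3.60 CPM with siFLI1. CD3E, HBB, MYOG and SOX10 had 0 counts in all 6 libraries, and the part of such markers in the results was not tested. Scaled by library size alone, the median of all genes moved to -0.11 and the called genes became 5488 higher and 7929 lower. Whether counting used strand is not given in the sources used here, and of the genes below ACTA2 (36%), BCL2L1 (41.3%), NKX2-2 (43.9%), PLAU (31%), TAGLN (34.1%), CDK4 (44.2%), CEBPA (43.9%), TUBA1B (44%) and IGF1 (82.5%), among others, share exon length with a gene on the opposite strand. A gene near 0 counts in one group passed the filter through the other group alone, which fixed its direction.

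**Figure D1:**
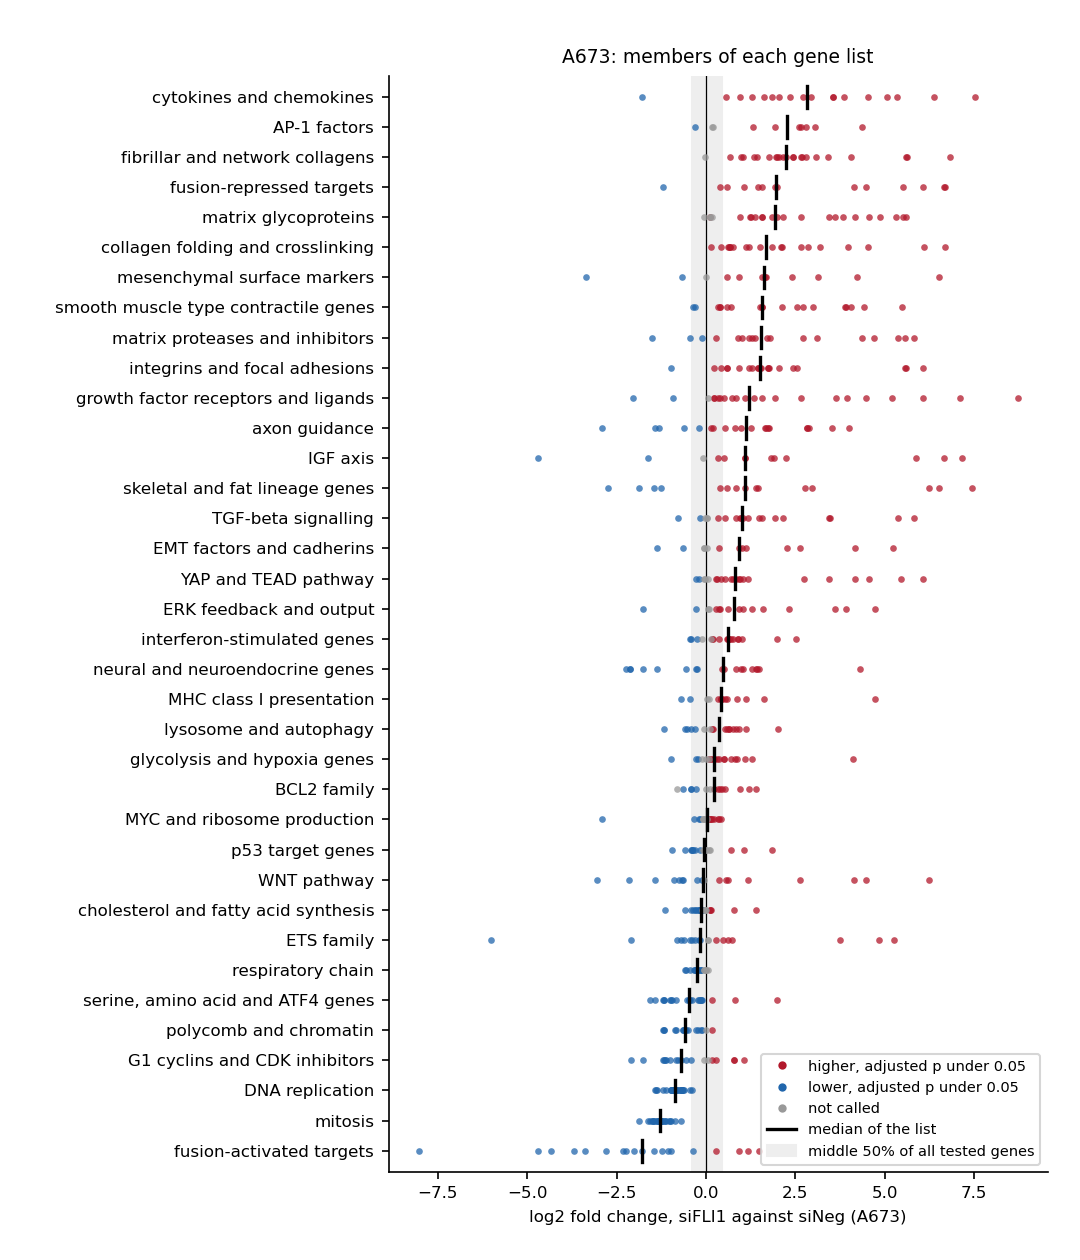
Log2 fold change (siFLI1 against siNeg in A673, x axis) of every tested member of 36 gene lists, ordered by list median. Red and blue points were called higher and lower, grey points were not called, black bars are list medians and the grey band is the middle 50% of all tested genes (-0.40 to 0.45). CXCL1, at 0 counts in every siNeg library, is drawn at its lower bound. The medians of the cytokine, AP-1 and matrix lists lie to the right of the band and those of the replication, mitosis and fusion-activated lists to the left.

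Genes listed as known targets of the fusion moved mostly in their known directions. These lists too were written with earlier results of these data known, so their counts are no independent test. Of 19 tested genes that the fusion is known to activate, 15 fell and 4 rose, with a median log2 fold change of -1.80. LIPI, a phospholipase used as a marker of this tumour, was at 102, 106 and 106 CPM with siNeg and 5.10, 4.64 and 5.65 CPM with siFLI1. PPP1R1A, a phosphatase inhibitor, was at 53.4, 52.8 and 53.7 CPM and 3.57, 4.23 and 4.58 CPM. Both were high in all 3 control libraries and low in all 3 knockdown libraries, with log2 fold changes of -4.35 ± 0.061 (SE) and -3.69 ± 0.068. GLI1, the transcription factor of the hedgehog pathway, fell further in A673 (-3.38) than in TC-32 (-2.03) or TC-71 (-0.12), and both differences passed the interaction test (edgeR adjusted p = 0.009 and 4.46e-21). The same held for STEAP2, a metalloreductase, at -2.80 against -1.32 and -0.90 (edgeR adjusted p = 9.46e-15 and 1.51e-21). The 4 members that rose were SOX6 (0.28), IL1RAP (0.91), PAPPA (1.16) and VGF (1.49). PAPPA, a protease that cleaves IGF-binding proteins, was at 144, 152 and 152 CPM with siNeg and 333, 335 and 332 CPM with siFLI1, a rise in a gene listed as fusion-activated. The string GGAAGGAA is the GGAA unit of the fusion's known sites in tandem. It stood within 250 bases before the start of 1 of 17 of the activated genes, CAV1. The share was 2.88% of all tested genes with a window. Enhancers outside these windows were not searched, so the count does not speak to them. Of 14 genes that the fusion is known to repress, 13 rose, with a median of 1.96. CDKN1C, a CDK inhibitor, was the one that fell, from at most 99 counts per library to at most 35.

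Many genes of the extracellular matrix rose. Collagens are secreted triple helices that are hydroxylated, folded, trimmed and crosslinked before they bear load, and genes for each step were measured. Of 23 tested collagen genes, 22 rose and none fell, with a median log2 fold change of 2.24, and 20 rose at least 2-fold. COL1A1, which encodes the alpha-1 chain of type I collagen, was at 48.8, 47.3 and 47.7 CPM with siNeg and 2113, 2573 and 2366 CPM with siFLI1. COL1A2, its partner chain, was at 881, 844 and 872 CPM with siNeg and 3328, 3711 and 3552 CPM with siFLI1. Both were higher in every knockdown library. Per kilobase of transcript, the chains started from unlike levels and ended nearer to each other: COL1A1 went from 5.32 to 261 CPM and COL1A2 from 80.1 to 327 CPM. COL11A1, a minor fibril collagen, rose most, from 0.832, 1.02 and 0.995 CPM to 103, 113 and 107 CPM (log2 fold change 6.82 ± 0.072). COL16A1 did not pass the test (-0.03, edgeR adjusted p = 0.615), though it was called lower without siFLI1 replicate 2.

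The collagen-processing genes rose together with the chains. All 20 tested members were called higher, against 35.6% of all genes, with a median of 1.69. The 5 lysyl oxidases, which crosslink collagen and elastin, had the highest median, 4.54, against 0.67 for prolyl and lysyl hydroxylases and 0.75 for chaperones. LOX was at 7.6, 7.88 and 7.74 CPM with siNeg and 834, 755 and 804 CPM with siFLI1 (log2 fold change 6.69 ± 0.052, edgeR adjusted p = 1.67e-20), and its groups did not overlap. The rise of LOX was larger in A673 than in TC-32 (3.71) and TC-71 (3.55), with edgeR adjusted p = 6.56e-22 and 4.29e-19 for the differences. SERPINH1, the collagen chaperone HSP47, rose by 1.11 and CRTAP, part of the prolyl 3-hydroxylase complex, by 0.14.

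Among 24 matrix glycoproteins, 20 rose and none fell, or 1 without siFLI1 replicate 2. The 10 matricellular proteins, which sit in the matrix and act on cells, all rose, with a median of 4.0. FN1, fibronectin, gained more reads than any other gene: 7353, 7279.5 and 7329 CPM with siNeg became 13955, 14629.9 and 13999 CPM with siFLI1. That gain of 6874 CPM was a log2 fold change of 0.96, from a control level that was already high. LAMA4, a laminin chain of vessel and muscle basement membranes, rose from 0.807, 0.680 and 0.750 CPM to 37.9, 36.7 and 34.1 CPM. Proteoglycans were mixed: LUM, lumican, and VCAN, versican, rose (1.58 and 1.37), while BGN (0.13) and FMOD (0.17) did not pass the test, BGN passing without siFLI1 replicate 1, with no filter on low counts and by DESeq2. BGN, biglycan, changed by 2.93 in TC-32 and 7.49 in TC-71, and A673 was below both (edgeR adjusted p = 2.23e-23 and 2.81e-14).

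Of 18 matrix proteases and their inhibitors, 15 rose and 3 fell. All 5 genes of the plasminogen system, which makes the protease plasmin at the cell surface, rose at least 2-fold. PLAU, the activator urokinase, was at 22.6, 20.8 and 20.6 CPM with siNeg and 547, 563 and 553 CPM with siFLI1. It was low in every control library and rose by 4.70 ± 0.046. The others that fell were MMP10 (-0.45) and TIMP1 (-0.10), a metalloproteinase inhibitor whose call was lost in 5 of the 6 fits that leave out a library. MMP3, stromelysin, rose by 5.57. MMP1, the fibroblast collagenase, was high in both groups, at 580.3, 585 and 526 CPM and 701, 654 and 680.2 CPM, and rose by 0.27. MMP9, a gelatinase, fell by 1.51 on the log2 scale, from 2.01, 2.20 and 1.79 CPM to 0.626, 0.781 and 0.700 CPM. ADAM12, a membrane metalloproteinase, rose from 0.391, 0.418 and 0.497 CPM to 19.4, 17 and 17.6 CPM.

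Adhesion and cytoskeleton genes rose with the matrix that they bind. Integrins join matrix to actin, and 20 of 21 integrin and focal adhesion genes rose, with a median of 1.51. ITGA3, the alpha chain of a laminin receptor, was at 1.42, 1.43 and 1.48 CPM with siNeg and 65.7, 71.2 and 69.5 CPM with siFLI1. Its rise of 5.58 exceeded those in TC-32 (2.93) and TC-71 (2.77), with edgeR adjusted p = 2.09e-22 and 4.54e-20. ITGB1, the common beta chain, rose from 428, 437 and 434 CPM to 1105, 998 and 1049 CPM. The member that fell was CAV1, caveolin, listed also as fusion-activated, from 1851, 1898 and 1906 CPM to 967, 912 and 965 CPM.

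Contractile genes of the smooth muscle type are read by SRF with its MRTF or myocardin cofactors at CArG boxes. Of 19 tested, 17 rose and 2 fell (MYH10, -0.30, and MKL2, an MRTF, -0.36). CNN1, calponin, was at 1.80, 1.57 and 1.67 CPM with siNeg and 32.5, 37.3 and 37.6 CPM with siFLI1. ACTA2, smooth muscle actin, was at 121, 113 and 110.3 CPM and 728, 767 and 778 CPM. TAGLN was at 71.4, 64.8 and 62 CPM and 877, 1028 and 1018 CPM, though 38.1% of its exon length overlaps another gene on the same strand. In all 3 genes every knockdown library was above every control library. Of the skeletal muscle markers, MYOD1 and MYOG did not pass the filter, and DES, desmin, was called higher, from at most 4 counts in a control library to at most 54 with siFLI1. In the 250 bases before the RefSeq start site (GRCh38.p14), 6 of 17 contractile genes with a window held a CArG box on either strand, 35.3% (95% Clopper-Pearson interval 14.2 to 61.7), against 1.04% of 12486 tested genes with a window. ACTG2, enteric smooth muscle actin, which rose from 0.524, 0.869 and 0.809 CPM to 11.1, 12.2 and 13.3 CPM, holds 2 such boxes, shown in capitals at chr2:73892838-73893004 on the plus strand.
ACTG2: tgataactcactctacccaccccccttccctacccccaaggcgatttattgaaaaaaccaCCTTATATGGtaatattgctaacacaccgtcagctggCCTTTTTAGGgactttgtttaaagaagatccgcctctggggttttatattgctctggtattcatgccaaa
A match is a string in the window and does not show that SRF binds it. The list was made of genes of a type known to be read at such boxes. Its share therefore describes the list and carries no test of the A673 response.

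The YAP and TEAD pathway reads cell shape and matrix stiffness, with LATS kinases holding YAP out of the nucleus and TEAD factors binding DNA. Its 10 target genes all rose, with a median of 3.09. In addition 5 of 7 effectors rose, WWTR1, TEAD1, TEAD3, TEAD4 and VGLL4, and 2 of 5 upstream members, LATS2 (0.94) and STK3 (0.30). YAP1 itself fell slightly (-0.20) and WWTR1, which encodes its paralog TAZ, rose (1.17). CTGF, a matricellular growth regulator, was at 60.4, 59.6 and 61.7 CPM with siNeg and 1099, 1060.2 and 1114 CPM with siFLI1. ANKRD1, a nuclear ankyrin repeat protein, was at 9.20, 9.16 and 9.25 CPM and 413, 383 and 409 CPM. Both were more than 10 times higher in every knockdown library than in any control library. AXL, a receptor tyrosine kinase counted in this list and among the growth factor receptors, went from 3.62, 3.07 and 3.63 CPM to 226, 238 and 234 CPM (log2 fold change 6.08 ± 0.061). F3, tissue factor, went from 10.9, 11.3 and 11.4 CPM to 268, 245.8 and 272 CPM. AXL and F3 rose further than in TC-32 (1.76 and 0.58) and TC-71 (3.15 and 2.69). The 4 differences passed the interaction test (largest edgeR adjusted p = 9.1e-20). They were the 2 targets of the 10 for which A673 was above both lines, and it was below both for 4. Over the 22 genes of the list A673 was above both for 4 and below both for 8, where 17.8% and 17.8% of all genes were. The list medians were 0.80 in A673, 0.93 in TC-32 and 1.56 in TC-71.

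The TEAD core GGAATG, on either strand, stood in the windows of 3 of 16 genes of this list (18.8%, interval 4.05 to 45.6), against 9.55% of all windows, a share inside that interval. The 2 genes with the largest rises among them are shown with the core in capitals: CTGF (RefSeq symbol CCN2) at chr6:131951398-131951601 and ANKRD1 at chr10:90921146-90921337, both on the minus strand.
CTGF: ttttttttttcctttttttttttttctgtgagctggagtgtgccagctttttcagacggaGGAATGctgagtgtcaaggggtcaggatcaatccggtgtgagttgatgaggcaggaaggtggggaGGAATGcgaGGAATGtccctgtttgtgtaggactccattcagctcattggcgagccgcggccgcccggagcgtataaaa
ANKRD1: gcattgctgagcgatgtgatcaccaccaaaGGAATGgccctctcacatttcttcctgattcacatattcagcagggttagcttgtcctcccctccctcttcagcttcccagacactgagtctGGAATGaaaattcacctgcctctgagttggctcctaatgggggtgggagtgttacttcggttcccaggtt

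TGF-beta is stored in the matrix and signals through SMADs to raise matrix genes. Of 20 pathway genes, 15 rose and 2 fell, with a median of 1.01. The ligand gene TGFB2 was at 9.17, 10.1 and 11.1 CPM with siNeg and 438, 406 and 426 CPM with siFLI1, with every knockdown library far above the controls. Storage proteins LTBP1 (3.43) and LTBP2 (3.47) rose, and so did all 4 receptor genes listed, from 0.85 to 2.15. Feedback genes moved less: SMAD7, an inhibitory SMAD, rose by 0.53, SMAD6, another, fell by 0.78 and SKIL, a SMAD corepressor, fell by 0.17 on the log2 scale. A673 was below both other lines for 9 of the 20 genes and above both for 1, where 17.8% and 17.8% of all genes were.

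Genes of epithelial-mesenchymal transition were mixed. Of 13 tested, 8 rose and 2 fell. SNAI2, the factor Slug, was at 1.47, 1.30 and 1.63 CPM with siNeg and 9.04, 8.78 and 9.58 CPM with siFLI1. TWIST1, a mesenchymal factor, moved the other way, from 15.7, 15.9 and 16.6 CPM to 6.11, 5.97 and 6.59 CPM, and neither gene's groups overlapped. CDH2, N-cadherin, rose (2.27), CDH11, the cadherin of bone and stroma, fell (-0.63), and CDH1, E-cadherin, did not pass the filter. Mesenchymal surface markers rose for 9 of 12 genes. CD44, the hyaluronan receptor, was at 3.64, 3.78 and 3.04 CPM with siNeg and 333, 310.4 and 319 CPM with siFLI1. NT5E, the stromal marker CD73, was at 39.0, 40.9 and 41.1 CPM and 808, 713 and 748 CPM. NGFR, the low-affinity neurotrophin receptor of neural crest and marrow stroma, fell from 22.0, 21.5 and 21.9 CPM to 2.12, 2.20 and 2.10 CPM, and THY1 fell by 0.67 on the log2 scale, so the markers were not all of 1 direction.

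**Figure D2:**
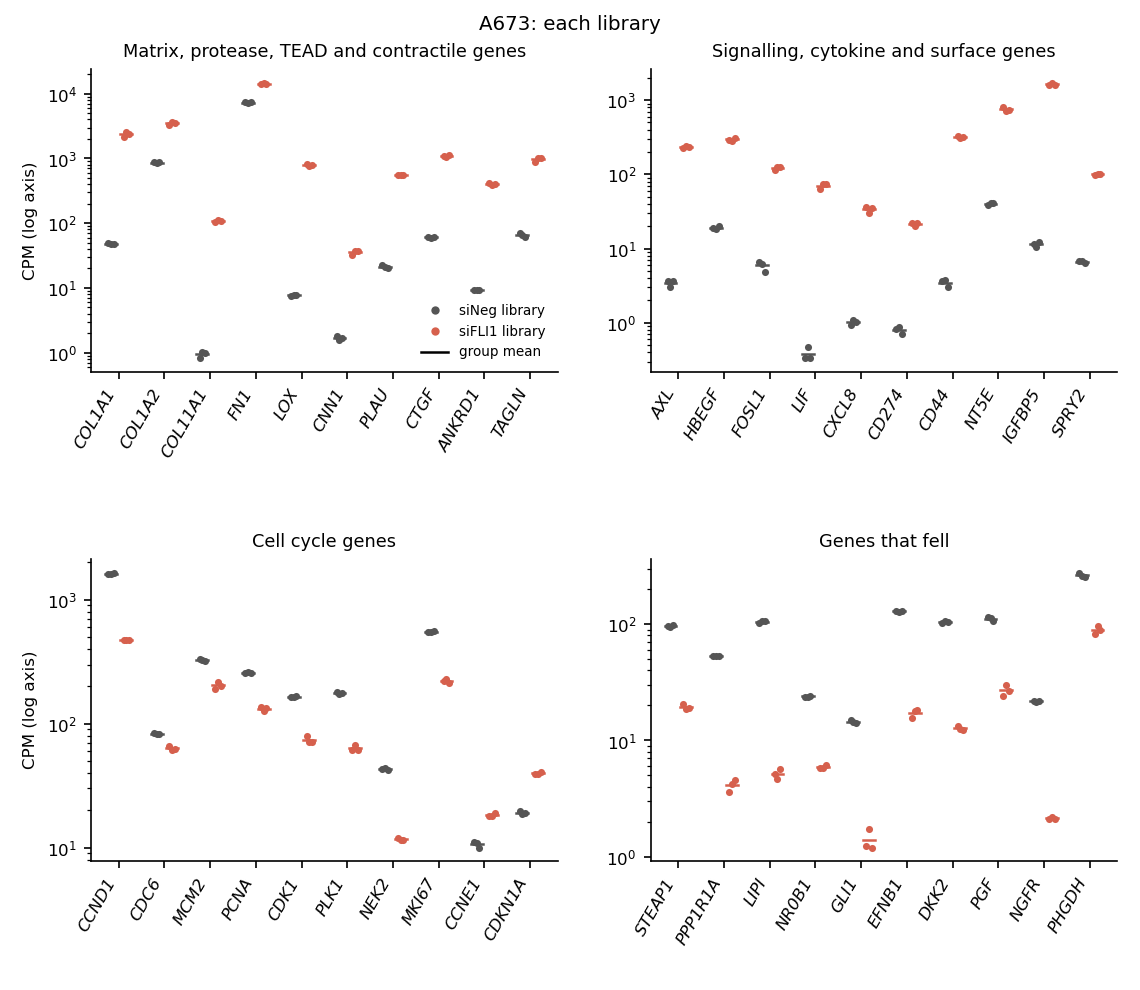
CPM in each of the 6 A673 libraries on a log axis, for 40 genes of the lists (grey, siNeg; red, siFLI1; bars, group means). In each of the 40 genes the 3 siFLI1 libraries lie wholly above or wholly below the 3 siNeg libraries. The same held for 73.6% of all tested genes, and many of the 40 were picked for large changes, so this carries no weight.

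Growth factor receptors and ligands rose for 19 of 22 genes, with a median of 1.21. EGFR was at 0.682, 0.820 and 0.582 CPM with siNeg and 16.1, 14.9 and 15.5 CPM with siFLI1, and HBEGF, one of its ligands, was at 18.9, 18.3 and 20.3 CPM and 295, 285 and 305 CPM. A receptor and a ligand of the EGF family were both higher in every knockdown library. MET, the HGF receptor, rose by 2.66 and KIT, the stem cell factor receptor, by 1.93. KIT changed the other way in TC-32 (-0.78) and TC-71 (-0.75), with edgeR adjusted p = 1.5e-25 and 1.55e-18 for the differences. VEGFC, a lymphatic growth factor, went from at most 3 counts in a control library to at least 678 in a knockdown library. PGF, placental growth factor, fell from 116, 112 and 107 CPM to 24.3, 30.02 and 26.4 CPM.

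The ERK pathway restrains itself through dual-specificity phosphatases and Sprouty proteins, which its output genes encode. Of 16 such genes, 12 rose and 2 fell, CCND1 and SPRED2 (-0.28), an ERK inhibitor. SPRY2 was at 6.76, 6.82 and 6.42 CPM with siNeg and 99.1, 100.3 and 99.9 CPM with siFLI1, and PHLDA1, an early response gene, was at 15.9, 16.0 and 15.1 CPM and 433, 401 and 404 CPM. Every knockdown library was more than 10 times above the controls in both genes. Both rises exceeded those of the other lines (largest edgeR adjusted p of the 4 differences = 0.00777). Over the 16 genes A673 was above both lines for 4 and below both for 5. The list medians were 0.78 in A673, 1.22 in TC-32 and 1.99 in TC-71. DUSP6, the phosphatase of ERK itself, did not pass the test (0.08, edgeR adjusted p = 0.0653), but did without siFLI1 replicate 1 or 2, with RLE factors, with a mean of at least 10 counts and by DESeq2, and its sign turned with library size alone.

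AP-1 is a dimer of Jun and Fos family proteins at the site TGANTCA. Of 10 tested genes 7 rose, each at least 2-fold, with a list median of 2.26. FOSL1 was at 6.69, 6.26 and 4.85 CPM with siNeg and 115, 125 and 124 CPM with siFLI1, and FOSL2 was at 16.5, 16.7 and 16.7 CPM and 133, 141 and 141 CPM. The immediate-early members FOS (0.16) and FOSB (0.19) did not pass the test, though FOS did without siFLI1 replicate 1, and JUND fell by 0.30 on the log2 scale. FOSL1 changed by 4.35 in A673, 0.16 in TC-32 and 2.55 in TC-71 (edgeR adjusted p = 1.13e-23 and 2.81e-10). Over all genes at least 2-fold higher, 8.19% of 1661 windows held the AP-1 site (interval 6.91 to 9.61), against 3.81% of 1103 windows of genes at least 2-fold lower and 3.63% of 3027 windows of genes not called. The share of windows with the ETS site CCGGAAGT, on either strand, was 1.2%, 2.90% and 8.36% in the same order, and 6.55% over all windows. These shares describe windows grouped by the same test and carry no test of their own. The windows differed in content too, with a median of 17, 17 and 20 CG pairs in that order. The ETS site holds such a pair, and the part of this in its shares was not tested.

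IGF signalling is a known dependency of Ewing cells, with binding proteins that hold the ligands. All 6 tested binding protein genes rose at least 2-fold. IGFBP5 was at 11.6, 10.6 and 12.2 CPM with siNeg and 1608, 1699.9 and 1622 CPM with siFLI1, which made it one of the 10 genes that gained the most reads. Its log2 fold change of 7.16 ± 0.056 stood against 2.47 in TC-32 and 1.27 in TC-71 (edgeR adjusted p = 2.6e-34 and 6.94e-28 for the differences). IGFBP3 rose from 0.457, 0.533 and 0.287 CPM to 44, 42.8 and 41.7 CPM. The ligand gene IGF1 fell from 27.3, 29.2 and 29.3 CPM to 1.2, 1.0 and 1.10 CPM, a gene that mostly overlaps another on the opposite strand, as given above. IRS2, an adaptor of the IGF receptor, fell from 106, 110.0 and 111 CPM to 36.7, 35.9 and 33.7 CPM, while IRS1, the other adaptor, rose by 0.51.

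WNT genes had no common direction: 8 of 18 rose and 9 fell. Among secreted antagonists, DKK1 rose from 4.36, 4.29 and 4.17 CPM to 95.4, 91.6 and 95.7 CPM and DKK2 fell from 102, 107 and 106 CPM to 13.3, 12.5 and 12.3 CPM, paralogs of opposite direction, with no overlap in either. WNT5B, a non-canonical ligand, rose from 0.374, 0.287 and 0.270 CPM to 21.9, 24.4 and 24.6 CPM. AXIN2, a common readout of beta-catenin activity, fell by 0.63 on the log2 scale.

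Cytokine and chemokine genes had the highest median of the 36 lists, 2.83, with 17 of 18 higher. Their summed level was 79.5 to 83.2 CPM with siNeg and 364 to 391 CPM with siFLI1. LIF, a cytokine of the IL-6 family, was at 0.341, 0.476 and 0.337 CPM with siNeg and 63.8, 74.0 and 74.0 CPM with siFLI1. IL11, of the same family, was at 0.0998, 0.115 and 0.0928 CPM and 8.4, 8.59 and 8.60 CPM, and CXCL8, a neutrophil chemokine, at 0.940, 1.10 and 1.01 CPM and 36.6, 30.6 and 34.8 CPM. All 3 were at about 1 CPM or less in every control library. CXCL1 had 0 counts in every control library and at most 83 with siFLI1, so it was at least 23.0-fold higher against a floor of 3 counts per library. IL33, an alarmin, was the one that fell, from 3.29, 3.25 and 3.51 CPM to 1.09, 0.884 and 0.953 CPM. All 5 NF-kB feedback genes rose, BIRC3, an inhibitor of apoptosis, by 3.87 and NFKBIA, which encodes IkB-alpha, by 0.55.

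The AP-1 site stood in the windows of 3 of 13 cytokine genes (23.1%, interval 5.04 to 53.8) and 3 of 9 protease genes (33.3%, interval 7.49 to 70.1), against 4.20% of all windows. The windows of IL11 (chr19:55370490-55370619, minus strand) and CXCL8 (chr4:73740372-73740501, plus strand) are shown because these cytokines rose most among those that held it, with the site in capitals.
IL11: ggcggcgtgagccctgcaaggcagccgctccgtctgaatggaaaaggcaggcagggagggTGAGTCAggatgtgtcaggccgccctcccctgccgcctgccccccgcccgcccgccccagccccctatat
CXCL8: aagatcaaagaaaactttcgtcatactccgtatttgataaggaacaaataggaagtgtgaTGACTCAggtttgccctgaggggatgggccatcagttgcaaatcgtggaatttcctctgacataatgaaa

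Interferon-stimulated genes rose for 15 of 20, but by a median of only 0.63, and 3 of them, IRF1, OAS2 (1.98) and MX1 (1.02), rose at least 2-fold. IRF1, a transcription factor that interferon and NF-kB both raise, led them, from 5.97, 5.62 and 5.58 CPM to 30.9, 33.6 and 32.9 CPM. Those that fell were OAS1 (-0.44), ISG15 (-0.25, not called without siNeg replicate 1) and OAS3, an RNA sensor, from 118, 117 and 115 CPM to 83.8, 94.7 and 85.8 CPM. The list's median was 1.43 in TC-32 and 1.05 in TC-71, and A673 was below both for 9 of 20 genes and above both for 0. In the MHC class I list, in which CD274 was counted as a regulator, 11 of 15 genes rose, by a median of 0.42. The summed level of the list was 2979 to 3070 CPM with siNeg and 2788 to 2906 CPM with siFLI1. B2M, the light chain of every class I molecule, fell, from 996, 975 and 1007 CPM with siNeg to 644, 578 and 619 CPM with siFLI1. CD274, which encodes the checkpoint ligand PD-L1, rose from 0.823, 0.885 and 0.708 CPM to 21.9, 19.9 and 22.2 CPM, with no overlap.

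Cell cycle genes fell, by less than in the other lines. Of 28 genes of DNA replication, 28 fell in A673, with a median log2 fold change of -0.86 and a range from -1.44 to -0.39. The median was -2.97 in TC-32 and -1.89 in TC-71. A673 lay above both other lines for 27 of the 28, against 17.8% of all genes, and LIG1, a DNA ligase, was the exception. MCM2, part of the replicative helicase, was at 329.7, 323 and 322 CPM with siNeg and 192, 215 and 203 CPM with siFLI1. CDC6, which loads that helicase, was at 84.1, 82.5 and 81.8 CPM and 65.5, 61.7 and 62.8 CPM, the smallest fall of the list. The groups did not overlap for either gene. CDC6 changed by -0.39 in A673, -3.65 in TC-32 and -1.99 in TC-71 (edgeR adjusted p = 1.37e-25 and 2.21e-17 for the differences).

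All 28 mitotic genes fell too, with a median of -1.30, and 25 of them fell at least 2-fold. The medians were -3.20 in TC-32 and -1.79 in TC-71, with A673 above both for 23. MKI67, which encodes the proliferation marker Ki-67, was at 545, 551 and 555 CPM with siNeg and 221, 227.1 and 212 CPM with siFLI1. NEK2, a centrosome kinase, was at 42.8, 43.7 and 42.6 CPM and 12, 11.4 and 11.51 CPM, the largest fall of the list (-1.88 ± 0.046). FOXM1, a transcription factor of this phase, fell from 275, 259.9 and 258 CPM to 97.3, 106 and 98.7 CPM. In A673 the mitotic list had the lower median of the 2, while in TC-71 the replication list did.

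Late cell cycle genes are known to be repressed through CHR elements (TTTGAA), often beside a CCAAT box, and genes of the G1 to S transition through E2F sites (TTTCCCGC, TTTGGCGC or TTTCGCGC). None of these strings contains another, and each was searched on both strands. The CHR stood in 11 of 23 mitotic windows (47.8%, interval 26.8 to 69.4), against 8.98% of all windows, and the CCAAT box in 17 (73.9%, interval 51.6 to 89.8), against 34.8%. The E2F site stood in 11 of 25 replication windows (44%, interval 24.4 to 65.1), against 3.64%. Both lists were made of genes of the phases that these sites are known for. Their shares therefore describe the lists and carry no test of the A673 response. The genes with the largest falls among those that held both elements are shown, KIF11, a spindle motor (chr10:92593017-92593129, plus strand), and PLK1, a mitotic kinase (chr16:23678756-23678888, plus strand), with the CCAAT box and the CHR in capitals in that order. LIG1, which fell most among replication genes with an E2F site, is shown with that site (chr19:48170389-48170518, minus strand).
KIF11: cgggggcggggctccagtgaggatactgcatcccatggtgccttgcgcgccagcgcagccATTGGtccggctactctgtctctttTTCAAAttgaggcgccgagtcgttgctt
PLK1: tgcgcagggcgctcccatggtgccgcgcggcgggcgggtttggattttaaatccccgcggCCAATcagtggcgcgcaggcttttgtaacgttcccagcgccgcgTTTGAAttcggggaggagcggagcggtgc
LIG1: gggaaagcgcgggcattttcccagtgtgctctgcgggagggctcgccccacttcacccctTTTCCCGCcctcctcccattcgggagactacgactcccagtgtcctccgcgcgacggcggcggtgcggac
In KIF11 both elements are written as their reverse complements. KIF11 fell from 158, 172 and 169 CPM to 57.5, 53.5 and 52.2 CPM and LIG1 from 121, 113 and 115 CPM to 41.7, 48.5 and 45.4 CPM.

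G1 regulators were divided. Of 19 tested, 12 fell and 5 rose, CCNE1, CDKN1A, CDK6 (0.78), CCND3 (0.28) and CDK4 (0.17). CCND1, cyclin D1, was at 1604, 1599 and 1649 CPM with siNeg and 477, 477 and 469.7 CPM with siFLI1, one of the 10 genes that lost the most reads. CCNE1, cyclin E1, rose instead, from 11.1, 10.8 and 10.01 CPM to 18, 18.1 and 18.9 CPM, while it changed by -1.80 in TC-32 and -0.18 in TC-71 (edgeR adjusted p = 3.31e-20 and 1.88e-08 for the differences). E2F2, an activator of S phase genes, fell most, from 75.5, 76.3 and 74.9 CPM to 17, 19 and 17 CPM. CDKN1A, the CDK inhibitor p21, rose from 19.6, 18.6 and 19 CPM to 39.0, 39.6 and 40.8 CPM, by 1.06 against 3.18 and 2.25 in the other lines (edgeR adjusted p = 1.53e-24 and 3.43e-16). CDKN1B, the inhibitor p27, fell by 0.85 on the log2 scale.

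Of 18 p53 target genes 3 rose, 8 fell and 7 did not pass the test, with 61.1% called against 71% of all genes. Without siFLI1 replicate 2, 5 rose. GDF15, a stress-induced TGF-beta family hormone, was at 2.85, 2.66 and 2.77 CPM with siNeg and 2.20, 2.08 and 2.05 CPM with siFLI1, a small fall. It rose by 5.64 in TC-32 and 3.99 in TC-71, and both differences passed (edgeR adjusted p = 1.13e-19 and 7.06e-09). Those that rose were TP53I3, an oxidoreductase (1.86), CDKN1A and the death receptor TNFRSF10B (0.71), and FDXR, a ferredoxin reductase, fell most (-0.94). In the BCL2 family, which sets the threshold for apoptosis, 8 of 15 genes rose and 4 fell, BMF, BCL2 (-0.42), BBC3 (-0.41, not called without siNeg replicate 1 or siFLI1 replicate 1 or 3) and BCL2L2 (-0.28). The survival gene BCL2L1 was at 84.7, 77.3 and 79.4 CPM and 149.8, 160.2 and 156 CPM, and BOK, an effector, at 15.9, 15.7 and 14.6 CPM and 35.8, 44 and 42.1 CPM. BMF, a BH3-only killer, fell by 0.64 on the log2 scale in A673 and changed by 1.08 in TC-32 and 2.36 in TC-71 (edgeR adjusted p = 2.35e-20 and 4.62e-26 for the differences).

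**Figure D3:**
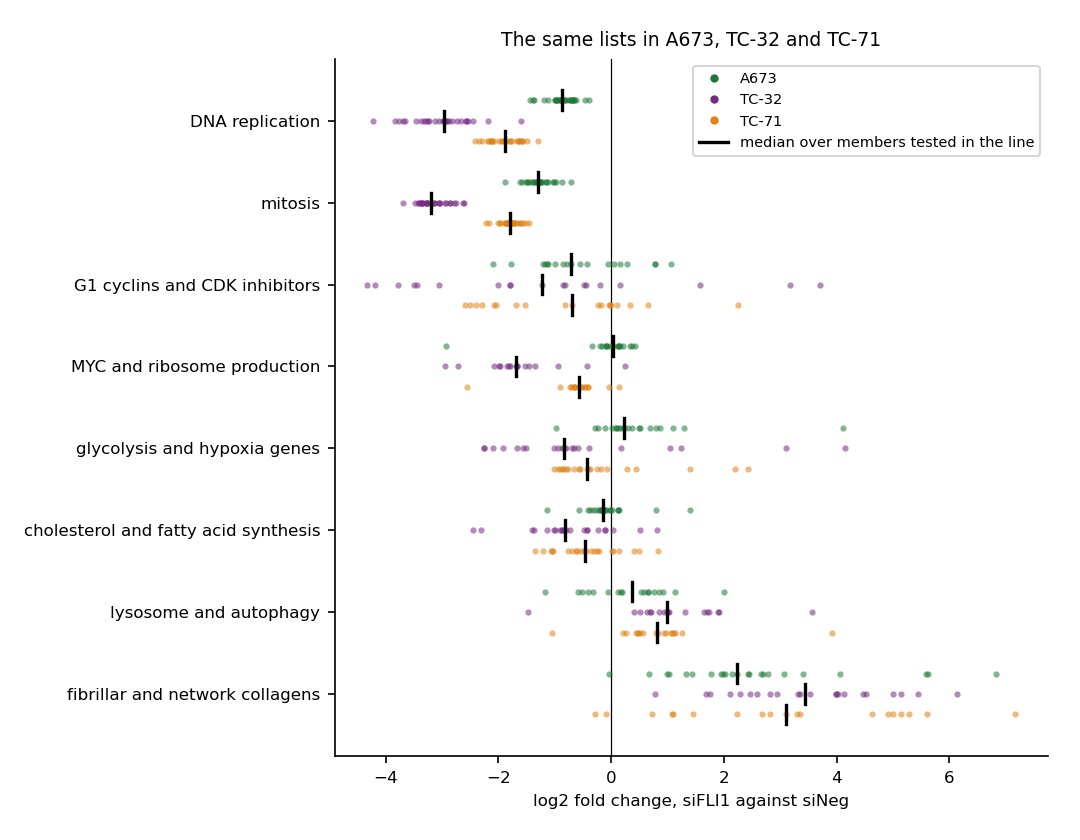
Log2 fold change (x axis) of the members of 8 lists in A673 (green), TC-32 (purple) and TC-71 (orange), with black bars for medians over the members tested in each line. For replication, mitosis, MYC, glycolysis and lipid synthesis the A673 median lies to the right of both others, and for lysosome genes and collagens to the left of both.

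Growth and metabolism genes had medians nearer 0 in A673 than the matrix and cell cycle lists. Of 17 genes of MYC and ribosome production, 8 rose, 4 fell and 5 did not pass, with a median of 0.04, against -1.68 in TC-32 and -0.57 in TC-71. Scaled by library size alone, the counts became 4 higher and 8 lower, so no direction is given for this list. MYC was at 114, 114 and 112 CPM with siNeg and 139, 148 and 150.04 CPM with siFLI1, a rise of 0.36 ± 0.039. It changed by -2.71 in TC-32 and -0.73 in TC-71 (edgeR adjusted p = 8.7e-29 and 3.5e-17 for the differences). A673 was above both lines for 14 of these 17 genes. Of those that fell, FBL (-0.34), NOP56 (-0.17) and POLR1B (-0.19) moved little, and MYCN, scarce in this line, fell from 1.86, 1.66 and 1.99 CPM to 0.249, 0.197 and 0.280 CPM.

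Glycolysis and hypoxia genes rose for 15 of 21, with a median of 0.23, while the medians were -0.83 in TC-32 and -0.43 in TC-71. With library size alone 12 rose and 5 fell. SLC2A1, the glucose transporter GLUT1, was at 47.1, 47.6 and 44.8 CPM and 96.0, 103 and 101 CPM. ADM, adrenomedullin, a vasodilator peptide induced in hypoxia, was at 9.80, 9.45 and 10.3 CPM and 161, 174 and 177 CPM. ENO2, the neuronal enolase, fell from 211, 192 and 193 CPM to 97.1, 101 and 104 CPM. A673 was above both other lines for 15 of the 21, HK2, a hexokinase, being an example (0.51 against -2.26 and -0.55).

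Lipid synthesis genes fell for 13 of 22, by a median of -0.13. FADS1, a fatty acid desaturase, fell most, from 906, 932 and 943 CPM to 429, 410.3 and 420.4 CPM. With library size alone 2 rose and 17 fell. A673 was above both lines for 15. In the serine and amino acid list 20 of 23 fell, by a median of -0.46. PHGDH, the first enzyme of serine synthesis, was at 277, 259.6 and 255 CPM with siNeg and 82.4, 97.4 and 89.98 CPM with siFLI1. TRIB3, a pseudokinase induced by ATF4, was at 61.2, 56.5 and 54.7 CPM and 21.0, 21.7 and 21.4 CPM. Members that rose were VLDLR (1.97), SLC7A11, the cystine transporter (0.80), and MTHFD1L (0.17). Of 19 respiratory chain genes 14 fell and none rose (1 without siFLI1 replicate 2), by a median of -0.24, and none changed 2-fold.

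Lysosome and autophagy genes rose for 11 of 18. The medians were 0.37 in A673, 1.0 in TC-32 and 0.82 in TC-71, and A673 was below both for 13. CTSL, a cathepsin, was at 39.9, 39.1 and 37.5 CPM and 85.2, 85.0 and 83.8 CPM. CTSK, the cathepsin of bone resorption, fell from 14.9, 14.4 and 15.3 CPM to 6.62, 6.83 and 6.25 CPM and changed by 1.74 in TC-32 (edgeR adjusted p = 1.94e-20 for the difference). Polycomb and DNA methylation genes fell for 15 of 17, by a median of -0.59. EZH2, the histone methyltransferase of PRC2, was at 120.3, 122 and 122 CPM and 56.4, 52.5 and 53.6 CPM, and CBX2, a PRC1 reader, at 94.4, 86.9 and 88.9 CPM and 36, 41.9 and 40.3 CPM. TET1, which oxidises methylcytosine, fell by 1.17 on the log2 scale and was below both other lines (edgeR adjusted p = 0.000192 and 5.57e-10).

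Lineage genes moved in both directions within each list. Neural and neuroendocrine genes rose for 10 and fell for 8 of 18. MAP2, a dendrite protein, rose from 0.540, 0.623 and 0.523 CPM to 11.9, 11.1 and 10.4 CPM, and SYP, synaptophysin, fell from 7.36, 7.4 and 7.72 CPM to 1.77, 1.61 and 1.79 CPM. POU4F1, a sensory neuron factor, fell from 46.3, 47.2 and 46.4 CPM to 10.7, 10.6 and 10.7 CPM. Of 15 skeletal and fat genes 11 rose and 4 fell. The falls included CEBPB (-1.89) and CEBPA (-1.27), factors used in fat cells, and BGLAP (-1.47), osteocalcin. CEBPB and CEBPA belong to the 6 fat genes, of which 4 rose, with a median of 1.69. The summed level of the 6 was lower all the same, at 23.5 to 24.9 CPM with siNeg and 16.2 to 16.6 CPM with siFLI1. RUNX2, the master factor of bone, rose from 5.24, 5.21 and 5.41 CPM to 41.4, 41.6 and 41.0 CPM. DLX5, another bone factor, fell from 37.9, 37.8 and 38.7 CPM to 5.61, 5.56 and 5.77 CPM, and the later bone genes SP7 and IBSP did not pass the filter. MGP, matrix Gla protein of cartilage and vessel, rose from 0.0416, 0.0738 and 0.101 CPM to 13.5, 13.3 and 11.4 CPM.

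Axon guidance genes are used by many mesenchymal cells. All 9 tested semaphorin, plexin and neuropilin genes of the list rose, 8 of them at least 2-fold, with a median of 1.76. SEMA5B, a semaphorin outside the list, fell, and its values are given further down. NRP1, a co-receptor of semaphorins and VEGF, was at 17.6, 18.4 and 17 CPM and 133, 129 and 128 CPM. Slit, netrin and ephrin genes split, 6 higher and 5 lower of 11. Those that fell were ROBO2 (-1.44), NTN1 (-1.32), UNC5B (-0.62), EPHB4 (-0.20) and EFNB1. EFNB1, an ephrin, fell from 129, 128 and 131 CPM to 15.7, 18.1 and 18.2 CPM, further than in TC-32 (-1.48) or TC-71 (-0.79), with edgeR adjusted p = 1.17e-18 and 3.83e-22. Of the 19 tested ETS factors 7 rose and 10 fell. ETS1 rose from 2.94, 3.378 and 3.19 CPM to 127, 116 and 119 CPM, while ETS2 fell by 0.71 and ETV6, a repressor, by 0.38 on the log2 scale.

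Outside the lists, the 12 largest rises and 12 largest falls among named genes with a mean of at least 2 CPM were taken. CPA4, a carboxypeptidase at chr7:130293134-130324180 (GRCh38), rose most. It was at 0.324, 0.156 and 0.253 CPM with siNeg and 442, 426 and 450.4 CPM with siFLI1, a log2 fold change of 10.81 ± 0.088 (edgeR adjusted p = 1.67e-20). Its log2 fold change was 9.84 in TC-32 and 10.62 in TC-71, and neither difference passed the test (edgeR adjusted p = 0.379 and 0.931). TNFSF18, the ligand of the costimulatory receptor GITR, went from 0.0748, 0.0820 and 0.0759 CPM to 58.1, 48.7 and 54.5 CPM. PTX3, a secreted pattern recognition protein, rose from 1.06, 0.910 and 0.995 CPM to 202, 188 and 204 CPM, and LRRC15, a surface protein of activated fibroblasts, from 0.150, 0.139 and 0.160 CPM to 35.1, 37.5 and 35.4 CPM. SDPR, a caveolar protein, rose by 7.28, by 5.49 more than in TC-32 (edgeR adjusted p = 5.83e-28). SDPR rose by 5.61 in TC-71, and that difference did not pass (edgeR adjusted p = 0.337). Further members were ADAM33, GPRC5A, KCNH1, CEMIP, PSG1 and KRTAP2-3. PSG1 and KRTAP2-3 had at most 2 and 1 counts in a control library and at most 876 and 788 with siFLI1, and both have near-identical paralogs.

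**Figure D4:**
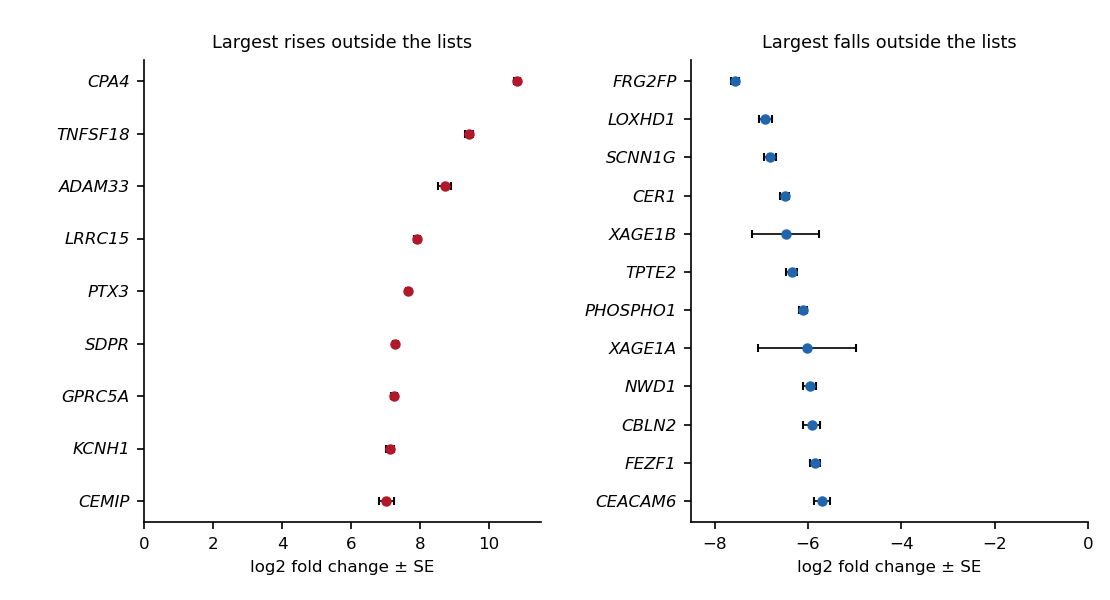
Log2 fold change with its SE (x axis) for the genes with the largest rises (left, red) and falls (right, blue) outside the lists. Genes with at most 5 counts in every library of a group, PSG1 and KRTAP2-3 among them, are not drawn. XAGE1A and XAGE1B have the widest errors.

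Among the largest falls, PHOSPHO1, a phosphatase of bone mineralisation, was at 41.1, 39.6 and 39.7 CPM with siNeg and 0.446, 0.661 and 0.639 CPM with siFLI1. CER1, a secreted BMP and nodal antagonist, was at 24.0, 24.5 and 23.8 CPM and 0.189, 0.283 and 0.324 CPM. FEZF1, a forebrain transcription factor, was at 21.1, 21.3 and 21.6 CPM and 0.351, 0.498 and 0.254 CPM, and SCNN1G, a sodium channel subunit, at 10.7, 10.8 and 9.98 CPM and 0.0686, 0.103 and 0.105 CPM. Each was under 1 CPM in all 3 knockdown libraries. CER1 changed by -5.60 in TC-32 and -0.47 in TC-71, and the difference between A673 and TC-71 passed (edgeR adjusted p = 3.24e-17). FEZF1 and SCNN1G fell further in A673 than in either line, with differences in log2 fold change of -3.67 and -4.16 against TC-32 and -3.41 and -3.61 against TC-71. XAGE1A and XAGE1B, cancer-testis antigens, had SEs of 1.05 and 0.72, far above the others, and they are near-identical copies among which reads can be split. FRG2FP, a pseudogene that shares 54.2% of its exon length with another gene on its strand, is uncertain too. LOXHD1, TPTE2, NWD1, CBLN2 and CEACAM6 made up the 12.

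By reads rather than by fold, 7 of the 10 genes that gained most encode matrix or matrix-bound proteins: FN1, COL1A2, TNC, COL1A1, SPARC, COL3A1 and IGFBP5. TNC, tenascin, gained 2322 CPM and SPARC, a collagen-binding glycoprotein, 2026 CPM. MYH9, non-muscle myosin, gained 1511 CPM, and the mitochondrial transcripts MT-RNR2 and MT-CO1 made up the 10. Genes among the 10 that lost most were TUBA1B (-1491 CPM), CCND1 (-1143 CPM), TUBB, CAV1, NELL2, HSP90AA1, HMGB1, HNRNPA2B1 and CES1. TUBA1B and TUBB encode the tubulin of microtubules, and NELL2, a secreted neural protein, was at 1213, 1223 and 1206 CPM with siNeg and 299, 289 and 299 CPM with siFLI1. CES1, a liver-type carboxylesterase, was at 931, 917 and 913 CPM and 251, 261 and 267 CPM. MT-CO1 and TUBB changed by 0.15 and -0.51 on the log2 scale, small fold changes behind large numbers of reads.

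Across all genes, the siFLI1 effect in A673 differed from that in TC-32 for 12179 of 19610 genes (62.1%) and from that in TC-71 for 10123 (51.6%). Each line had its own table, A673 its own medium, and TC-71 another counting tool by its table's name. The columns of TC-32 and TC-71 name a time and those of A673 name none, so line, time and handling cannot be told apart. In 498 genes A673 rose and both other lines fell, and in 443 A673 fell and both rose, with each change and both differences passing the test. DNAJC6, the neuronal clathrin uncoating protein auxilin, was at 0.216, 0.148 and 0.126 CPM with siNeg and 3.09, 2.54 and 3.02 CPM with siFLI1 in A673. AK4, a mitochondrial adenylate kinase, was at 3.85, 4.05 and 3.74 CPM and 26.5, 22.9 and 24.0 CPM, and TMEFF2, a transmembrane follistatin-like protein, at 6.19, 6.27 and 6.64 CPM and 44.7, 42.7 and 42.3 CPM. In TC-32 and TC-71 these fell, AK4 by 1.12 and 1.06 on the log2 scale. In the other direction AKR1C2, an aldo-keto reductase of steroids, was at 41.3, 42.1 and 42.6 CPM and 9.59, 8.94 and 9.53 CPM in A673 and rose by 2.31 and 3.77 in the others. AKR1C genes are close paralogs, so reads can be split among them. SEMA5B, a semaphorin, was at 2.39, 2.66 and 1.97 CPM and 0.0429, 0.120 and 0.184 CPM, and SCX, the tendon factor scleraxis, at 1.48, 1.35 and 1.74 CPM and 0.240, 0.318 and 0.341 CPM, while both rose in the other lines.

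**Figure D5:**
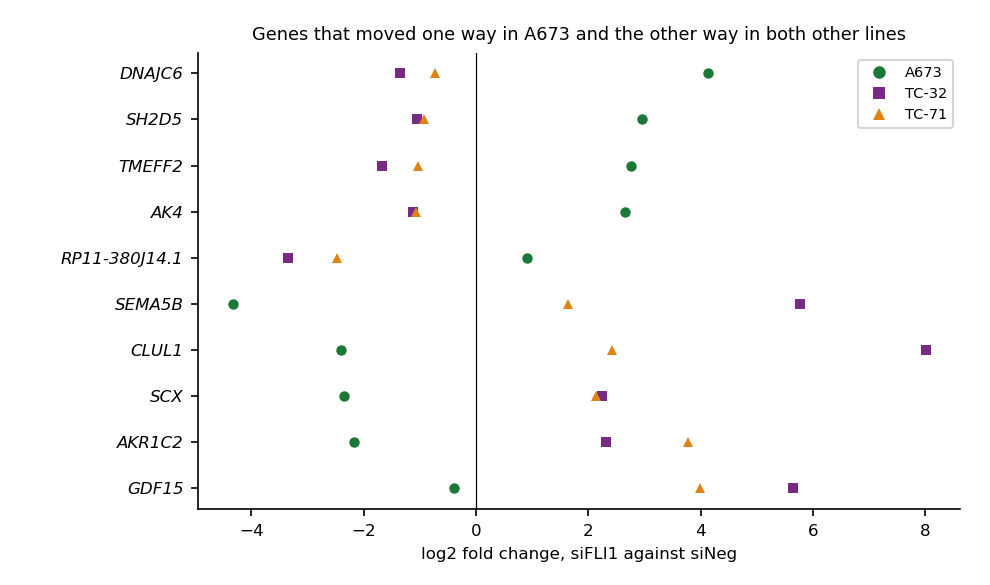
Log2 fold change (x axis) in A673 (circle), TC-32 (square) and TC-71 (triangle) of the 10 genes with the largest opposite changes, 5 in each direction. In each gene the A673 point lies across 0 from both others.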

How the data were processed

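RNA-seq of A673 cells was compared between 3 siFLI1 and 3 siNeg libraries (stranded mRNA kit, per the labels' protocols). The authors deposited expected counts per gene from RSEM for A673 and TC-32 and counts from Subread for TC-71, by the tables' names. The submitters' processing notes name cutadapt 4.4, STAR 2.7.3, featureCounts, Subread 2.0.3, limma 3.38.3 and GRCh38, with no role. Annotation, strand setting and filters are not given in the sources used here.

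Expected counts were rounded, filtered with filterByExpr by group, scaled with TMM factors and tested in edgeR 4.0.16 (R 4.3.3, robust quasi-likelihood fit, Benjamini-Hochberg over all tested genes, 0.05). Differences between lines were interaction contrasts in 1 fit of the 18 libraries. Printed CPM were scaled by the library total (114564479 to 120993595 counts) times its TMM factor, at which 3 counts, the floor, are about 0.0255 CPM. Intervals cover counting error only. The fits were tested on simulated data. The test between lines missed part of the changes put in, and it was judged on genes present in both lines, a criterion narrowed after a first try fell short. DESeq2 1.42.0 and limma 3.58.1 (voom) were alternatives. No 2 libraries agreed within sampling noise (lowest chi-square per degree of freedom 4.33).

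Gene lists (up to 4 members of each with every library, those with the largest changes and the heads of subgroups), the 12 largest rises and falls outside them, the 10 largest gains and losses of CPM and the 5 largest changes opposite to both other lines in each direction were the genes named, and some genes that met these rules are not reported here. Members and lists were chosen with earlier results of these data known. Promoter windows came from RefSeq (GRCh38.p14), matched by symbol for 12486 of 18444 genes.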

Additional observations from a re-analysis of the deposited data

Results flagged for a closer look

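The effect of siFLI1 in A673 differed from the effect in another line, by an edgeR interaction test at an adjusted p under 0.05, for 12179 of 19610 genes against TC-32 and 10123 against TC-71. Among genes that moved in opposite directions in A673 and in both other lines, the 5 of each direction with the largest differences are given here by the smaller of their 2 differences in log2 fold change, A673 minus the other line. The genes higher in A673 were DNAJC6 (4.82), SH2D5 (3.83), TMEFF2 (3.77), AK4 (3.68) and RP11-380J14.1 (3.37). The genes lower in A673 were SEMA5B (-5.99), CLUL1 (-4.86), SCX (-4.52), AKR1C2 (-4.50) and GDF15 (-4.46). SH2D5 encodes an adaptor protein with a phosphotyrosine-binding domain and CLUL1 a clusterin-like protein of the retina. Lines differed also in medium and table, and a time is named in the columns of TC-32 and TC-71 alone, so these cannot be told apart from the line.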

How the results depend on the processing

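The number of called genes in A673, 13096, was 12580 by DESeq2, 13131 by limma-voom, 14043 with no filter on low counts, 12952 with a mean of at least 10 counts and 4269 when a change of at least 2-fold was asked for as well. Leaving out a library in turn gave 12352 to 13406 called genes, 11773 to 12139 genes that differ from TC-32 and 9522 to 10047 that differ from TC-71. With the replicate number as a block, which the labels do not tie to a shared source, 12467 genes were called, 11800 differed from TC-32 and 9576 from TC-71, and 1 of 3 siNeg libraries deviated most like the siFLI1 library of its number (correlations of same-numbered deviations -0.0530, 0.0301 and -0.0144). The counts of calls in lists moved by over 1.5 times in 13 of 76 cases, all from small counts and mostly with library size alone. Of the genes named, 12 changed their side of the threshold or their sign in any of 14 alternatives. The log2 fold change of DUSP6 turned to -0.028 with library size alone, and that of COL16A1 ranged from -0.1081 to 0.0434 as libraries were left out. Library size alone also ended the calls of CDK4, CRTAP, MT-CO1 and MTHFD1L, DESeq2 that of BBC3, the block that of TIMP1 and limma-voom that of XAGE1A. The causes were not tested. Depth limits genes of few counts, whose fitted fold changes depend on the prior count.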

Other observations

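The gene families below lie outside the lists. They were picked after their values were seen, so only values are given. Of all tested genes 35.6% were called higher and 35.4% lower, and 13.3% and 9.87% were so by at least 2-fold. The PSG genes, pregnancy-specific glycoproteins of the placenta, that passed the filter had at most 4 counts in a control library and as many as 876 with siFLI1. They passed through the siFLI1 libraries alone, so their direction carries no weight, and their near-identical sequences leave single members uncertain. Of 6 tested metallothioneins, metal-binding proteins induced by zinc and glucocorticoids, 6 were lower, each at least 2-fold. Their median log2 fold change was -2.53. MT1H had at most 29 counts in a control library and at most 2 with siFLI1. It passed the filter through the controls alone, so its direction carries no weight. Over the metallothioneins tested in the other lines, the medians were -0.54 in TC-32 (4 genes) and 0.52 in TC-71 (3 genes).

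Homeobox clusters, which set position along the body axis, differed. Of 9 HOXD genes 8 were lower, 6 of them at least 2-fold. HOXD12, 1 of these 6, was scarce, with at most 31 counts in a control library and at most 11 with siFLI1. Of 9 HOXB genes 3 were higher and 4 lower and of 9 HOXC genes 2 and 5, with no change of 2-fold. No HOXA gene passed the filter. Of 9 POU factor genes 7 were lower, with a median of -1.95. Among protocadherins, adhesion proteins of neurons, the 17 tested genes of the beta cluster had a median of 0.10 in A673. Over the 15 tested in each other line, the medians were 2.43 in TC-32 and 1.13 in TC-71. Of 22 tested genes of the gamma cluster 5 were higher and 7 lower in A673, with a median of -0.19. The medians were 1.36 in TC-32 (20 genes) and 0.60 in TC-71 (16 genes). The gamma genes share 27.5% to 64.4% of their exon length with other genes on their strand. Their reads can be split among them, and TC-71 was counted with another tool, so single members are uncertain. In A673 9 of 11 non-clustered genes were lower, with a median of -1.53 against -1.70 in TC-32 (8 genes) and 1.18 in TC-71 (9 genes). Of 78 ribosomal protein genes 16 were higher and 29 lower, none by 2-fold. Their median was -0.04, so no direction is given for them.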
